A study of Danio rerio with 8 samples.

Results

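The 10 genes described here encode regulators whose mammalian counterparts help to set how much mitochondrial protein and DNA a cell makes. They are ppargc1a, ppargc1b, esrra, esrrga, esrrgb, pparaa, nrf1, gabpa, tfam and polrmt. They were chosen by symbol from the 32520 gene rows of the count table. A symbol matched 9 of them directly, and esrrga was matched to the single ESRRG row after its paralog suffix was dropped. The 10 genes were measured in cardiac ventricles of adult zebrafish that were homozygous for a cox7a1 mutation (cox7a1-/-) and in those of their wildtype siblings. Both genotypes were sampled 7 days after cryoinjury, in which part of the ventricle is killed by freezing, and uninjured hearts were not analysed here. Each genotype had 4 pools of 5 ventricles, so the spread between pools is not that between single fish. The labels give no strain, sex or exact age of the fish and do not name the mutant allele.

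The gene cox7a1 encodes a small subunit of respiratory complex IV, which passes electrons to oxygen. Heart muscle is rich in mitochondria. In mice the coactivators of the PGC-1 family encoded by Ppargc1a and Ppargc1b raise mitochondrial content by binding to transcription factors that already sit on DNA. Their partners include the oestrogen-related receptors and PPAR alpha, which act on genes of oxidative metabolism and fat burning, and the nuclear respiratory factors NRF1 and GABP. These in turn act on nuclear genes such as that of TFAM, which packs mitochondrial DNA and, with the RNA polymerase POLRMT, starts its transcription.

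Total counts ran from 41556101 to 69057989 in mutant pools and from 49788133 to 53597730 in wildtype pools. Levels are given as CPM, read counts scaled to library size with a correction for library composition. The transcript of cox7a1 itself ran from 59.5 to 194 CPM in mutant pools and from 210 to 286 CPM in wildtype pools (log2 fold change -1.11 ± 0.295, SE; edgeR adjusted p = 0.0776). Markers of heart muscle differed widely in level. MYL7, a cardiac myosin light chain, ran from 8422 to 14280 CPM in mutant pools and from 9819 to 13000 CPM in wildtype pools. By contrast, nppb ran from 158 to 293 CPM in mutant pools and from 93.9 to 204 CPM in wildtype pools. A TNNT2 row on chromosome 6 ran from 0.78 to 1.495 CPM in mutant pools and from 1.307 to 2.035 CPM in wildtype pools. Summed CPM of marker lists in mutant and in wildtype pools were 29340 to 47070 and 30480 to 37310 for 8 cardiomyocyte genes, 921 to 1277 and 1036 to 1300 for 5 genes of endothelium and endocardium, and 2370 to 3649 and 1785 to 3415 for 7 genes of fibroblasts and epicardium. They were 128 to 189 and 122 to 178 for 3 leukocyte genes, 5.72 to 18.2 and 5.97 to 16.0 for 2 neutrophil genes, 582 to 1526 and 506 to 872 for 3 red blood cell genes, and 9396 to 14880 and 7330 to 10660 for 6 skeletal muscle genes. In the last list ACTA1 and ckma gave nearly all of the sum, and the skeletal muscle factor MYOD1 did not exceed 1.27 CPM in mutant pools and 1.47 CPM in wildtype pools. MMP9 gave nearly all of the neutrophil sum. The other neutrophil gene, lyz, did not exceed 0.355 CPM in mutant pools and 0.498 CPM in wildtype pools. The ranges of the 2 genotypes overlapped for each of these 7 lists, no marker gene passed the test, and none was at 0 in all pools. Sums can hide single markers, whose log2 fold changes ran from -0.76 (TNNT3 on chromosome 7, edgeR adjusted p = 0.624) to 2.23 (hbaa2, 0.111). Only actc1a had genotypes that did not overlap, with mutant pools higher (0.42, edgeR adjusted p = 0.187), against 11.7% of all tested genes. Mutant replicate 4 stood apart from the others: it was the deepest library and had the highest cardiomyocyte sum and the highest mean level of complex I subunit genes. It was also the mutant pool with the most cox7a1 transcript, at 194 CPM, against 59.5, 113 and 88.5 CPM in mutant replicates 1 to 3. Without mutant replicate 4 the log2 fold change of cox7a1 was -1.50 (edgeR adjusted p = 0.0144).

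No regulator passed the test between the genotypes, and the largest difference among them was in ppargc1a. Of the 10 genes, 9 passed the filter on low counts, and edgeR's quasi-likelihood test called 0 of these 9 at an adjusted p under 0.05, against 2.02% of the 17949 genes tested. At an unadjusted p under 0.05 the count was 1 of 9 (ppargc1a), against 18% of the genes tested. That count was 0 without mutant replicate 3 or without wildtype replicate 3 and with limma-voom, and 2 without wildtype replicate 4. The DESeq2 and limma-voom tests likewise called 0, against 6.55% and 2.06% of the genes that each of them tested. The genotypes overlapped in each of the 9 genes, whereas they did not overlap in 11.7% of all tested genes. The median log2 fold change of the 9 genes was -0.07 and that of all tested genes 0.00. In these 9 genes 3 log2 fold changes were positive and 6 negative, from -0.67 to 0.32. Without mutant replicate 4, edgeR likewise called 0 of the 9, where the fits with 1 pool left out called 68 to 473 genes in the whole table. In bulk RNA of a ventricle, fewer cells of a type and less RNA per cell cannot be told apart.

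**Figure D1:**
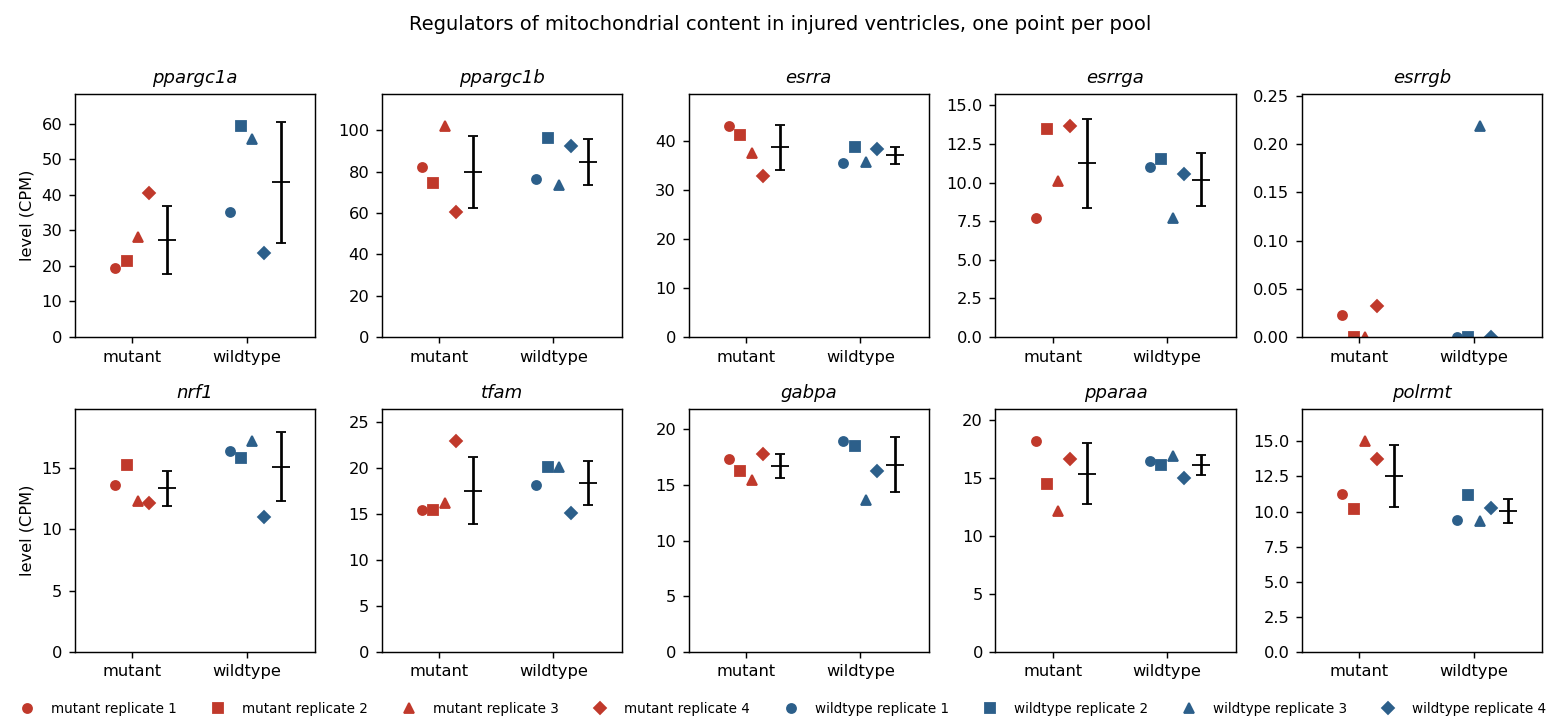
Level of each of the 10 regulators in CPM (vertical axis, a scale of its own per gene, from 0) in the 4 mutant and the 4 wildtype pools; each symbol is a pool, and the bars give the mean and SD except for esrrgb, which was at or near 0. Mutant and wildtype pools overlap in every panel, and ppargc1a has the widest spread relative to its mean of the 9 genes tested.

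Among the coactivators, the transcript of ppargc1a (PPARGC1A, ENSDARG00000067829; GRCz11, chromosome 7, 70578985 to 70665965, minus strand, 2580 exonic bases), which encodes the coactivator that gives the family its name, was present at 19.4, 21.3, 28.1 and 40.5 CPM in mutant replicates 1 to 4, against 35.2, 59.3, 55.7 and 23.6 CPM in wildtype replicates 1 to 4. Mutant replicates 1 and 2 lay below every wildtype pool, mutant replicates 3 and 4 lay within the wildtype range, and wildtype replicate 4 lay among the mutant pools. The means were 27.3 ± 9.54 CPM in mutant and 43.4 ± 17.0 CPM in wildtype pools (SD, n = 4 each). This was a log2 fold change of -0.67 ± 0.296 (SE), or 0.629-fold with a 95% interval from 0.402 to 0.986 that is not adjusted for the number of genes. The edgeR adjusted p was 0.262, so the difference did not pass the test. Without wildtype replicate 4 the value was -0.89 (adjusted p = 0.0904), without wildtype replicate 2 it was -0.48 (0.507), and without mutant replicate 4 it was -0.92 (0.117).

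The transcript of ppargc1b (ENSDARG00000101569; chromosome 14, 24934736 to 25001584, plus strand, 7415 exonic bases), which encodes the second coactivator of the family, was present at 82.4, 74.4, 102 and 60.5 CPM in mutant replicates 1 to 4, against 76.5, 96.3, 73.7 and 92.2 CPM in wildtype replicates 1 to 4. The lowest and the highest pool were both mutant. Between the genotypes ppargc1b had a log2 fold change of -0.08 ± 0.163 (SE; edgeR adjusted p = 0.833), with a 95% interval from 0.737-fold to 1.21-fold. The ratio of ppargc1a to ppargc1b counts within a pool was 0.236, 0.286, 0.275 and 0.669 in mutant replicates 1 to 4, against 0.461, 0.616, 0.755 and 0.256 in wildtype replicates 1 to 4. In the balance of these coactivators, mutant replicate 4 thus lay far above the other mutant pools. Wildtype replicate 4 was the lowest of the wildtype pools, which were themselves widely spread.

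The oestrogen-related receptors are orphan nuclear receptors that bind PGC-1 coactivators. The receptor gene esrra (ESRRA, ENSDARG00000069266; chromosome 21, 26606741 to 26634099, plus strand, 2050 exonic bases) was present at 43.0, 41.1, 37.5 and 32.8 CPM in mutant replicates 1 to 4, against 35.5, 38.7, 35.6 and 38.3 CPM in wildtype replicates 1 to 4. Its SD was 11.7% of the mean in mutant pools and 4.66% in wildtype pools, the smallest of the 10 regulators among wildtype pools. Its log2 fold change was 0.06 ± 0.111 (SE; edgeR adjusted p = 0.828), with a 95% interval from 0.881-fold to 1.23-fold. The esrrga transcript (ESRRG, ENSDARG00000004861; chromosome 17, 29797876 to 29902187, minus strand, 1991 exonic bases) was present at 7.72, 13.5, 10.1 and 13.7 CPM in mutant replicates 1 to 4, against 11.04, 11.5, 7.69 and 10.6 CPM in wildtype replicates 1 to 4. Mutant replicate 1 and wildtype replicate 3 were nearly equal at the low end. The log2 fold change of esrrga was 0.14 ± 0.199 (SE; edgeR adjusted p = 0.766), with a 95% interval from 0.816-fold to 1.49-fold.

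Its paralog esrrgb (ENSDARG00000011696; chromosome 20, 46790056 to 46817223, minus strand, 1840 exonic bases) was at or near 0. Mutant replicates 1 to 4 held 1, 0, 0 and 2 reads of it, and wildtype replicates 1 to 4 held 0, 0, 11 and 0 reads. Only 1 pool, wildtype replicate 3, exceeded 3 reads, which was 0.219 CPM. The gene did not pass the filter on low counts and was not tested. A count of 0 allows up to 3 reads in a library, or 0.0484 to 0.0669 CPM here, for counting error only.

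PPAR alpha is a nuclear receptor for fatty acids, and its gene pparaa (ENSDARG00000031777; chromosome 4, 18609539 to 18635005, minus strand, 1953 exonic bases) was present at 18.2, 14.5, 12.2 and 16.7 CPM in mutant replicates 1 to 4, against 16.5, 16.2, 16.9 and 15.0 CPM in wildtype replicates 1 to 4. The wildtype pools all lay within the range of the mutant pools. For pparaa the log2 fold change was -0.07 ± 0.138 (SE; edgeR adjusted p = 0.843), with a 95% interval from 0.774-fold to 1.18-fold.

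The nuclear respiratory factors bind promoters of many nuclear genes for mitochondrial proteins. The transcript of nrf1 (NRF1, ENSDARG00000000018; chromosome 4, 15081385 to 15103696, minus strand, 3013 exonic bases) was present at 13.6, 15.3, 12.3 and 12.1 CPM in mutant replicates 1 to 4, against 16.4, 15.8, 17.2 and 10.99 CPM in wildtype replicates 1 to 4. Each mutant pool lay below wildtype replicates 1 to 3 and above wildtype replicate 4. For nrf1 the log2 fold change was -0.18 ± 0.156 (SE; edgeR adjusted p = 0.596), with a 95% interval from 0.697-fold to 1.12-fold. The gene gabpa (GABPA, ENSDARG00000069289; chromosome 9, 35014513 to 35026608, plus strand, 3922 exonic bases) encodes the DNA-binding subunit of GABP. It was present at 17.3, 16.3, 15.5 and 17.8 CPM in mutant replicates 1 to 4, against 19.0, 18.5, 13.6 and 16.2 CPM in wildtype replicates 1 to 4. All mutant pools lay within the wildtype range, and their SD was 6.25% of their mean, the smallest of the 10 regulators among mutant pools. Its log2 fold change was -0.01 ± 0.130 (SE; edgeR adjusted p = 0.978), with a 95% interval from 0.815-fold to 1.21-fold.

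Of the factors that act on mitochondrial DNA, tfam (TFAM, ENSDARG00000063145; chromosome 12, 7254112 to 7263958, plus strand, 1356 exonic bases) was present at 15.5, 15.5, 16.3 and 23.0 CPM in mutant replicates 1 to 4, against 18.1, 20.2, 20.2 and 15.1 CPM in wildtype replicates 1 to 4. Mutant replicates 1 to 3 lay close together near wildtype replicate 4, and mutant replicate 4 lay above every wildtype pool. Genotypes differed in tfam by a log2 fold change of -0.07 ± 0.158 (SE; edgeR adjusted p = 0.868), with a 95% interval from 0.751-fold to 1.21-fold. The polrmt transcript (POLRMT, ENSDARG00000101220; chromosome 22, 19018602 to 19102311, minus strand, 3846 exonic bases) was present at 11.24, 10.2, 15.0 and 13.7 CPM in mutant replicates 1 to 4, against 9.43, 11.19, 9.30 and 10.3 CPM in wildtype replicates 1 to 4. Mutant replicates 3 and 4 lay above every wildtype pool, mutant replicate 1 just above the highest of them, and mutant replicate 2 within their range. Its log2 fold change was 0.32 ± 0.149 (SE), or 1.25-fold with a 95% interval from 0.997 to 1.57, the largest positive value of the 9 genes, and the edgeR adjusted p was 0.286. The ratio of polrmt to tfam counts within a pool was 0.727, 0.658, 0.926 and 0.597 in mutant replicates 1 to 4, against 0.520, 0.555, 0.461 and 0.679 in wildtype replicates 1 to 4.

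**Figure D2:**
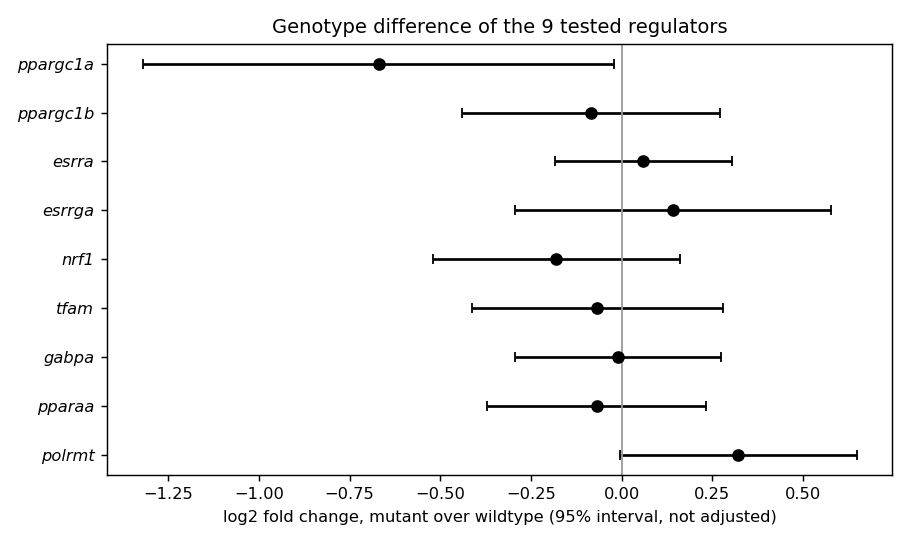
Log2 fold change of mutant over wildtype pools (horizontal axis) for the 9 regulators tested, with bars for the 95% interval of each gene, not adjusted for the number of genes. The interval of ppargc1a lies below 0. All the others span 0, that of polrmt with its lower end just below 0, and none of the 9 passed the adjusted threshold.

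Levels of different genes were compared per length, as CPM per kilobase of exon. In mutant pools the order from the highest mean was esrra (18.8), tfam (12.9), ppargc1b (10.8), ppargc1a (10.6), pparaa (7.88), esrrga (5.65), nrf1 (4.43), gabpa (4.26), polrmt (3.26) and esrrgb (0.00742). In wildtype pools it was esrra (18.1), ppargc1a (16.8), tfam (13.6), ppargc1b (11.4), pparaa (8.27), esrrga (5.12), nrf1 (5.01), gabpa (4.29), polrmt (2.61) and esrrgb (0.0298). The order of the other 9 genes was shared by both genotypes once ppargc1a was set aside, and ppargc1a held place 4 in mutant and place 2 in wildtype pools. Among mutant pools, neighbours in this order did not overlap between gabpa and polrmt and between polrmt and esrrgb. Among wildtype pools they did not overlap there either, nor between ppargc1b and pparaa and between pparaa and esrrga. The remaining neighbours could not be ordered beyond the spread of the pools.

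The pools that were high in ppargc1a were also high in tfam. With log2 CPM standardised over the 8 pools, the root mean square difference between ppargc1a and tfam was 0.511 SD, the smallest of all pairs of the 9 regulators, and the largest was 1.77 SD between esrra and tfam. After ppargc1a and tfam, the next nearest pairs were ppargc1a and nrf1 (0.941 SD), esrrga and gabpa (0.945 SD) and ppargc1b and esrra (0.95 SD). This is a description of 8 pools that share their libraries, with no test. The mean level of 37 nuclear genes of complex I subunits stood at 5.74, 6.17, 6.17 and 6.99 log2 CPM in mutant replicates 1 to 4, against 6.29, 6.68, 6.56 and 6.24 log2 CPM in wildtype replicates 1 to 4. Mutant replicate 1 was the lowest of the 8 pools in ppargc1a and in complex I, and mutant replicate 4 was the highest in tfam and in complex I. The mean deviation of the longest 25% of genes less that of the shortest 25% was 0.20, 0.01, 0.18 and -0.21 on the log2 scale in mutant replicates 1 to 4, against -0.05, -0.09, -0.09 and 0.05 in wildtype replicates 1 to 4. The summed CPM of cardiomyocyte markers was 29340, 33280, 38080 and 47070 in mutant replicates 1 to 4, against 30480, 37310, 36900 and 36520 in wildtype replicates 1 to 4. The part of gene length and of cardiomyocyte content in the shared pattern was not tested.

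**Figure D3:**
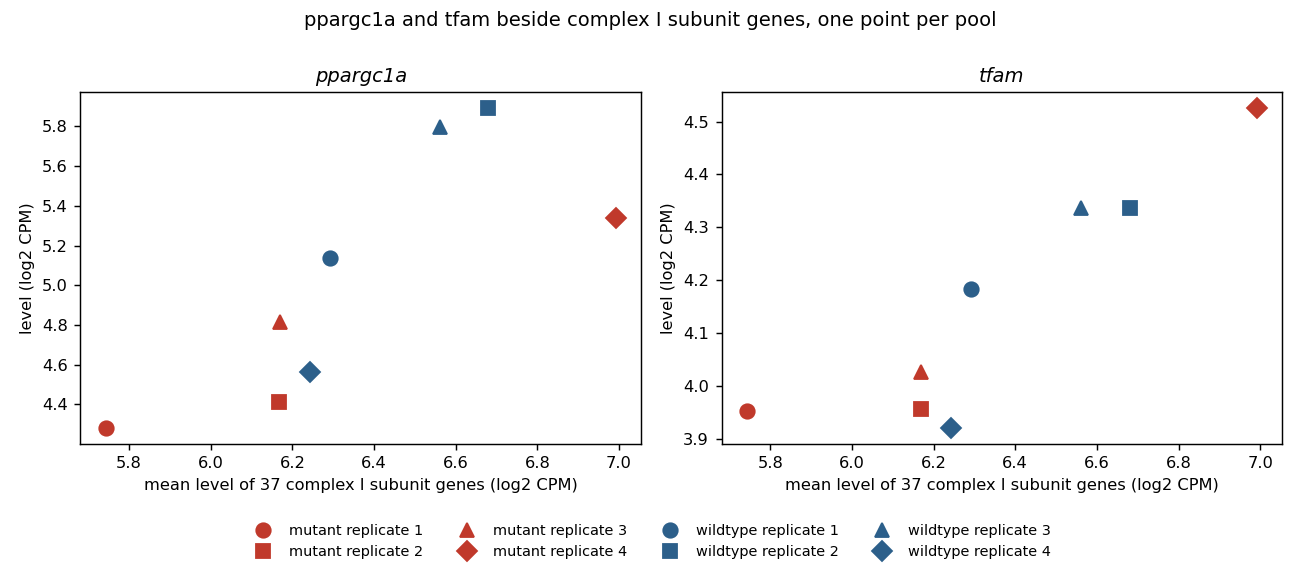
Level of ppargc1a (left) and tfam (right) in log2 CPM on the vertical axes against the mean log2 CPM of 37 complex I subunit genes on the horizontal axis, one symbol per pool; neither axis starts at 0. Mutant replicate 1 is at the low end of the horizontal axis at 5.74 and mutant replicate 4 at the high end at 6.99, with the wildtype pools between them.

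Outside the 10 regulators, the 3 genes whose pattern over the pools was most like that of ppargc1a, among 13099 genes whose log2 CPM averaged 1 or more, were hdhd3 (0.137 SD), si:dkey-220k22.1 (0.164 SD) and cdca7b (0.21 SD). Like ppargc1a, cdca7b was lowest in mutant replicate 1 and highest in wildtype replicate 2, at 12.7, 14.4, 16.2 and 19.2 CPM in mutant replicates 1 to 4, against 18.8, 23.7, 20.4 and 14.9 CPM in wildtype replicates 1 to 4. For tfam the 3 nearest genes were mrps6 (0.165 SD), which encodes a protein of the mitochondrial ribosome, GPI (0.174 SD), an enzyme of glycolysis, and si:ch73-42p12.2 (0.189 SD). The transcript of mrps6 was present at 6.58, 6.55, 6.88 and 13.4 CPM in mutant replicates 1 to 4, against 7.91, 11.2, 10.7 and 6.65 CPM in wildtype replicates 1 to 4. As for tfam, mutant replicate 4 was the highest of the 8 pools. The high and low pools that cdca7b and mrps6 share with ppargc1a and tfam follow from their choice by likeness and are not separate results.

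Transcripts of the mitochondrial genome, which TFAM and POLRMT serve, did not differ beyond the spread between pools. The 37 genes of the mitochondrial genome took 14.1%, 15.0%, 15.0% and 13.3% of counts in mutant replicates 1 to 4, against 14.3%, 15.7%, 17.4% and 14.0% in wildtype replicates 1 to 4. Mutant replicate 4, the pool with the most tfam, had the smallest share. The share is of total counts, without the composition scaling used for tfam, and this pool had the lowest scaling factor of all pools (0.897). The 2 measures are thus not on the same scale. In CPM, mutant replicate 4 was the highest mutant pool in MT-CO3 (14370 CPM) and the lowest mutant pool in MT-CO1 (43320 CPM). The mean was 14.4% ± 0.811 in mutant and 15.3% ± 1.55 in wildtype pools (SD, n = 4 each), a difference of -0.956 percentage points with a two-sided exact permutation p of 0.4, where 0.0286 is the smallest that 4 pools against 4 allow. Without mutant replicate 4 the difference was -0.608 percentage points (two-sided exact permutation p = 0.686). None of the 13 protein-coding genes of the mitochondrial genome passed edgeR's test, against 2.02% of all tested genes. Their log2 fold changes ran from -0.22 to 0.20, with a median of -0.08 and edgeR adjusted p-values of 0.461 or above. In edgeR 0 of the 13 had an unadjusted p under 0.05, against 18% of all tested genes. DESeq2 and limma-voom called 0, against 6.55% and 2.06% of the genes that each of them tested. With so few genes called in all, 0 calls among 13 does not set these genes apart.

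In the wider pathway, edgeR called 3 genes higher in mutant ventricles, pprc1, LONP1 and tomm34, and 0 lower. They stand among 116 tested genes in 5 lists, against 1.14% of all tested genes called higher and 0.88% called lower. With libraries scaled by their totals alone, the split over all genes was 60 higher and 97 lower, against 205 higher and 158 lower with composition scaling, and pprc1 was the 1 list gene called. DESeq2's test called 6 list genes higher and 1 lower, adding MEF2A, ALAS1 and LPL among the higher and MTERF4 as the lower one. These were 7 of the 116 list genes, against 6.55% of the 16892 genes that DESeq2 tested. Without wildtype replicate 4, edgeR also called 1 list gene lower, which was MTERF4. Without mutant replicate 4 it called 1 list gene lower as well, but that was not MTERF4 (edgeR adjusted p = 0.0775).

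The clearest of the 3 was pprc1 (ENSDARG00000090337; chromosome 13, 12007904 to 12021566, minus strand, 4265 exonic bases), which encodes the PGC-1-related coactivator, the remaining member of the family of ppargc1a and ppargc1b. It is known from cultured mammalian cells as a coactivator induced by growth signals that works with NRF1. Its transcript was present at 9.34, 10.01, 11.7 and 11.8 CPM in mutant replicates 1 to 4, against 5.36, 3.29, 4.44 and 4.38 CPM in wildtype replicates 1 to 4. Every mutant pool exceeded every wildtype pool. The means were 10.7 ± 1.21 CPM in mutant and 4.37 ± 0.848 CPM in wildtype pools (SD, n = 4 each). Mutant pools thus had 2.45-fold more pprc1 (log2 fold change 1.29 ± 0.171, SE), with a 95% interval from 1.89-fold to 3.17-fold, and the edgeR adjusted p was 0.00795. The call was kept with each of the 8 pools left out in turn, with log2 fold changes from 1.18 to 1.40 and adjusted p-values up to 0.0387. Within the PGC-1 family, pprc1 thus rose while ppargc1a and ppargc1b had log2 fold changes of -0.67 and -0.08 that did not pass the test; the differences between these genes were not tested.

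**Figure D4:**
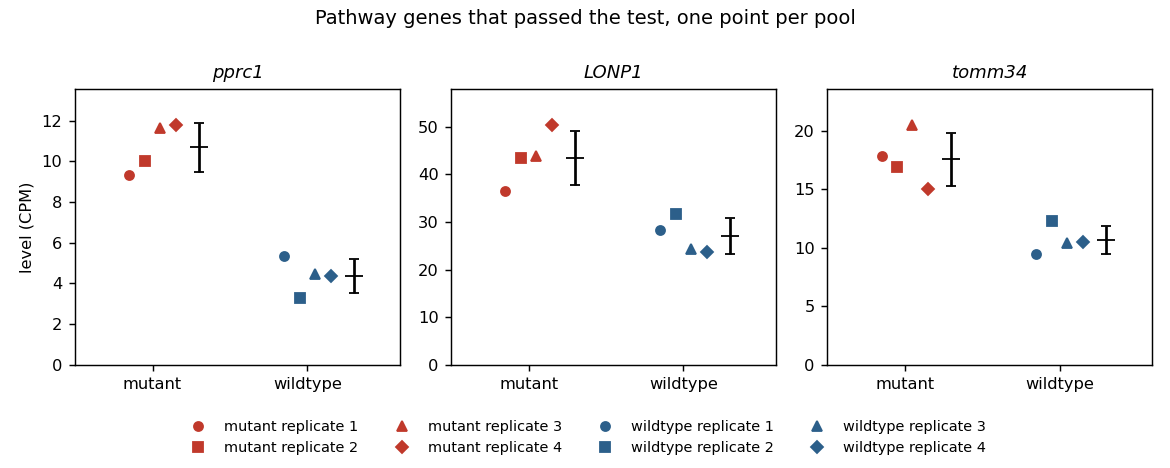
Levels of pprc1, LONP1 and tomm34 in CPM (vertical axes from 0, a scale of its own per gene) in the 4 mutant and the 4 wildtype pools; each symbol is a pool, and the bars give the mean and SD. All mutant pools lie above all wildtype pools in the 3 panels, with pprc1 at 9.34 to 11.8 CPM in mutant pools and at 3.29 to 5.36 CPM in wildtype pools. The 3 genes are shown because they passed the test on these same values. The genotypes did not overlap in 11.7% of all tested genes.

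The list of coactivator partners and inputs held 29 genes, all tested. Of these, edgeR called 1, pprc1, against 2.02% of all tested genes, and DESeq2 2, against 6.55% of the genes it tested. At an unadjusted p under 0.05 it had 12 of 29 genes, in both directions, against 3235 of 17949 over all tested genes, and its median log2 fold change was -0.05. The gene with the next smallest p was MEF2A, a muscle transcription factor, at 70.1 ± 7.11 CPM in mutant and 50.7 ± 5.35 CPM in wildtype pools (SD, n = 4 each; log2 fold change 0.47 ± 0.118, SE; edgeR adjusted p = 0.0695, DESeq2 adjusted p = 0.012). Its genotypes did not overlap, as in 4 of the 29 genes, against 11.7% of all tested genes.

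Nuclear receptors of the same families, with the retinoid X and thyroid hormone receptors, gave 14 tested genes of 15. Of these, edgeR called 0, against 2.02% of all tested genes. DESeq2 and limma-voom also called 0, against 6.55% and 2.06% of the genes that each of them tested. The median log2 fold change was 0.02, and 1 gene had an unadjusted p under 0.05, against 18% of all tested genes. The smallest p was that of THRB, a thyroid hormone receptor, at 24.5 ± 5.41 CPM in mutant and 34.2 ± 6.09 CPM in wildtype pools (SD, n = 4 each; log2 fold change -0.48 ± 0.181, SE; edgeR adjusted p = 0.191). It was followed by pparg, the receptor known from fat cells of mammals, at 2.14 ± 0.507 CPM in mutant and 1.49 ± 0.425 CPM in wildtype pools (0.52 ± 0.288; 0.37).

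Replication and expression of mitochondrial DNA were represented by 23 genes, all tested. Of these, edgeR called 1, LONP1, against 2.02% of all tested genes. DESeq2 called 2, against 6.55% of the genes it tested. At an unadjusted p under 0.05 there were 7 of 23 genes, in both directions, against 18% of all tested genes. LONP1 is a protease of the mitochondrial matrix that degrades TFAM in human and fly cells. Its transcript was present at 36.5, 43.5, 43.8 and 50.4 CPM in mutant replicates 1 to 4, against 28.4, 31.8, 24.3 and 23.6 CPM in wildtype replicates 1 to 4, with no overlap. LONP1 had a log2 fold change of 0.69 ± 0.135 (SE), or 1.61-fold, with an edgeR adjusted p of 0.0285. The call was lost without mutant replicate 2 or 3 or without wildtype replicate 1, 3 or 4 (adjusted p = 0.0666, 0.0914, 0.0649, 0.099 and 0.0515), and with library totals alone (0.051). The gene with the next smallest p was MTERF4, a mitochondrial protein needed for ribosome assembly in mice, at 2.65 ± 0.556 CPM in mutant and 4.53 ± 0.887 CPM in wildtype pools (SD, n = 4 each; log2 fold change -0.77 ± 0.22, SE; edgeR adjusted p = 0.0972, DESeq2 adjusted p = 0.0275). Without wildtype replicate 4, edgeR called MTERF4 lower (-0.92, adjusted p = 0.0498). The median of the list was 0.08.

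Nuclear targets outside the respiratory chain complexes, such as import proteins, carriers, channels and cytochrome c, gave 25 tested genes of 27. Of these, edgeR called 1, tomm34, against 2.02% of all tested genes, and DESeq2 2, against 6.55% of the genes it tested. At an unadjusted p under 0.05 there were 3 of 25 genes, against 18% of all tested genes, and the median log2 fold change was 0.07. The gene tomm34 encodes a cytosolic cochaperone that helps deliver precursor proteins to mitochondria. It was present at 17.9, 16.9, 20.5 and 15.0 CPM in mutant replicates 1 to 4, against 9.51, 12.3, 10.4 and 10.5 CPM in wildtype replicates 1 to 4, with no overlap. Mutant pools had 1.64-fold more tomm34 (log2 fold change 0.72 ± 0.136, SE), with an edgeR adjusted p of 0.0263. The call was lost without mutant replicate 1, 2 or 3 or without wildtype replicate 1 or 3 (adjusted p = 0.0734, 0.0549, 0.0927, 0.0738 and 0.0874), and with library totals alone (0.056). The next smallest p was that of ALAS1, the first enzyme of heme synthesis, at 1050 ± 311 CPM in mutant and 683 ± 82.6 CPM in wildtype pools (SD, n = 4 each; log2 fold change 0.62 ± 0.191, SE; edgeR adjusted p = 0.122, DESeq2 adjusted p = 0.0303). Without mutant replicate 4 the ALAS1 value was 0.40 (edgeR adjusted p = 0.129).

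Fatty acid targets of the receptors gave 25 tested genes of 26 and no call by edgeR, against 2.02% of all tested genes. The list had 9 positive and 16 negative log2 fold changes and a median of -0.07. At an unadjusted p under 0.05 there were 3 of 25 genes, against 18% of all tested genes. DESeq2 called 1 and limma-voom 0, against 6.55% and 2.06% of the genes that each of them tested. The smallest p was that of the LPL row on chromosome 22, whose product frees fatty acids from lipoproteins, at 309 ± 37.04 CPM in mutant and 203 ± 51.8 CPM in wildtype pools (SD, n = 4 each; log2 fold change 0.61 ± 0.19, SE; edgeR adjusted p = 0.126, DESeq2 adjusted p = 0.0375). Another LPL row, on chromosome 2, reached at most 0.33 CPM in any pool and was not tested. Next by p came ECH1, an enzyme of the oxidation of unsaturated fatty acids, at 45.0 ± 4.84 CPM in mutant and 55.1 ± 4.96 CPM in wildtype pools (-0.29 ± 0.116; 0.211).

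**Figure D5:**
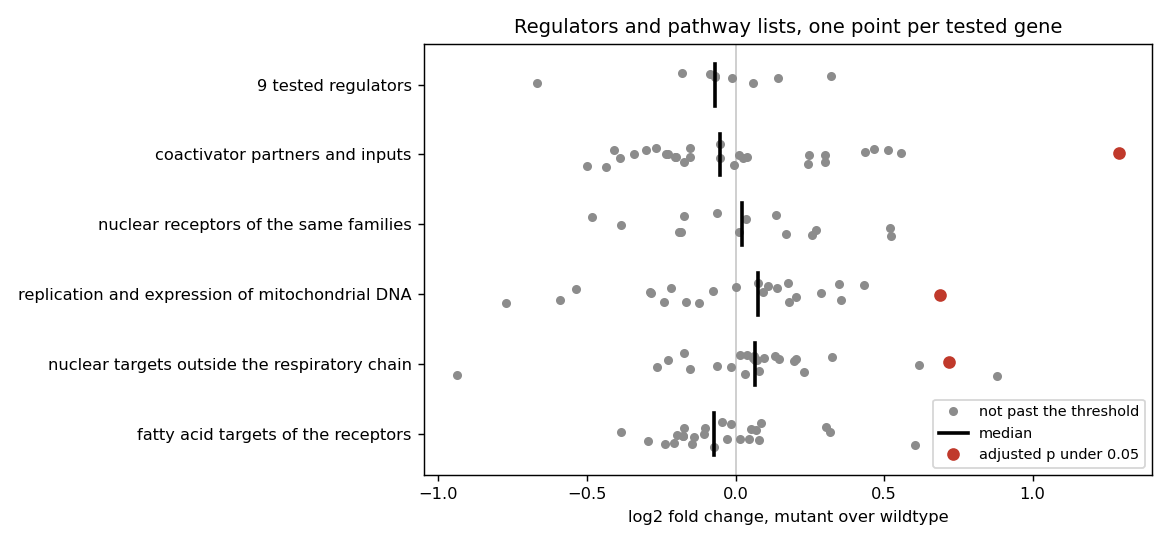
Log2 fold change of mutant over wildtype pools (horizontal axis) for the 9 tested regulators and for the tested genes of the 5 pathway lists (rows); each point is a gene, large red points passed edgeR's adjusted threshold, and black bars mark the median. The medians lie between -0.07 and 0.08, and the called genes pprc1, LONP1 and tomm34 lie at 1.29, 0.69 and 0.72.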

How the data were processed

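RNA was sequenced from 8 pools of ventricles with a directional Illumina kit, per the labels' protocols. The deposited table holds unnormalised read counts for each gene and pool, made by the authors with featureCounts 2.0.3 over exons, strand setting 2 and the Ensembl 109 annotation of GRCz11, per the file headers. The submitters' processing notes also list FastQC, MultiQC, fastp and STAR without versions. The file header's command has no option to count reads mapped to several places, so near-identical paralogs can lose reads. Columns were matched to samples by the library numbers in the labels, and replicate numbers are those of the titles. Symbols came from a table that names 29201 of the 32520 gene IDs.

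Low genes were removed with edgeR's filterByExpr (minimum count 10), libraries were scaled with TMM, and genotypes were compared in edgeR 4.0.16 (R 4.3.3) by the quasi-likelihood test without covariates and with Benjamini-Hochberg adjustment over the 17949 genes tested, at a threshold of 0.05. Log2 CPM used a prior count of 2. The SE is the size of the log2 fold change divided by the square root of F. The scripts were tested on simulated data. The 10 regulators and the lists were chosen with earlier results of these data known. All 10 regulators and cox7a1 are named, and from each of 5 pathway lists every called gene or otherwise the 2 smallest p-values. Where 1 gene was called, the gene next to it by p is also given, outside that rule. Likeness to ppargc1a and tfam was ranked by the root mean square difference of standardised log2 CPM, and the 3 nearest genes are named. Of 125 list symbols, 6 were not matched. Alternatives were DESeq2 (1.42.0) size factors or test, limma-voom (limma 3.58.1), other scaling and filters, a replicate block, removal of a trend on exon length (lowess span 0.3), a threshold of 0.1 and each pool left out in turn. Depth was 41556101 to 69057989 counts per pool.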

Additional observations from a re-analysis of the deposited data

Results flagged for a closer look

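In 24 groups of 4 pools looked at (12 measures in each genotype), 2 held a pool far from the other 3, and chance flags about 1 group in 20. The tfam level of mutant replicate 4 was 23.0 CPM, against 15.5 to 16.3 CPM in the other mutant pools, a gap of 0.894 of the group's range. The esrrgb level of wildtype replicate 3 was 0.219 CPM (11 reads), against 0 in the other wildtype pools. With those pools at 0, any read in the remaining pool gives a gap of the whole range. The rate of chance flags therefore does not apply to esrrgb.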

How the results depend on the processing

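None of the 9 tested regulators passed the threshold in the reported fit or under any of the 18 other settings run. The reported fit called 2.02% of the 17949 genes tested, and the other settings called 68 to 1107 genes in the whole table. At such low shares, 0 of 9 does not set the regulators apart from other genes. None of the 9 changed sign under another scaling, filter, test, block or length correction. With 1 pool left out in turn, log2 fold changes crossed 0 for esrra (-0.0056 to 0.13), gabpa (-0.099 to 0.043), pparaa (-0.17 to 0.030) and ppargc1b (-0.22 to 0.028), and the ranges were -0.92 to -0.48 for ppargc1a, 0.22 to 0.41 for polrmt, -0.23 (without mutant replicate 4) to -0.010 (without mutant replicate 2) for tfam, -0.32 (without wildtype replicate 4) to -0.11 (without wildtype replicate 3) for nrf1, and 0.029 (without wildtype replicate 3) to 0.27 (without mutant replicate 1) for esrrga. The log2 fold changes of cox7a1 and the 10 named list genes kept their sign under all 17 settings that gave them a value.

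The number of called genes in the whole table was 363, and it became 892 at a threshold of 0.1, 1107 with DESeq2's test, 157 with library totals alone, 210 with the replicate block and 68 to 473 with 1 pool left out, with 171 or fewer without any 1 of mutant replicates 1 to 3 or wildtype replicates 1 to 3. The number of called list genes was 3, and it became 5, 7, 1 and 1 under the same 4 settings and 1 to 4 with 1 pool left out, with 1 when mutant replicate 2 or 3 or wildtype replicate 1 or 3 was left out. The cause was not tested. Correlations between the deviations of same-numbered pools were 0.246, -0.07, 0.04 and -0.07 for numbers 1 to 4. The value for number 1 was the highest of all pairs of a mutant and a wildtype pool, and the others were near 0. The labels do not say what a shared number stands for, so the replicate block is given as an alternative only. Under it LONP1 and tomm34 were no longer called (adjusted p = 0.0623 and 0.0584), pprc1 was (0.0211), and 0 of the 9 regulators had an unadjusted p under 0.05. The difference in the share of the mitochondrial genome was -1.16 percentage points for its protein-coding genes and -1.40 to -0.273 with 1 pool left out. Precision was limited by the spread between pools, which among the 9 tested regulators reached an SD of 39.1% of the mean (ppargc1a in wildtype).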

Other observations

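A PPARA row (ENSDARG00000054323, chromosome 25), reached from the list symbol pparab and chosen here after its values were seen, varied far more between pools than its paralog pparaa. It was present at 6.89, 10.1, 18.0 and 33.7 CPM in mutant replicates 1 to 4, against 9.68, 16.7, 22.7 and 19.2 CPM in wildtype replicates 1 to 4. The SD was 69.8% of the mean in mutant and 32.2% in wildtype pools, against 17.1% and 5.12% for pparaa. Its log2 fold change was 0.01 ± 0.418 (SE; edgeR adjusted p = 0.993), and the highest of the 8 pools was mutant replicate 4, which was also the highest in tfam and in complex I subunit genes.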
